A study of Mus musculus with 12 samples.

Results

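The 10 genes described here, Bc1, Rmrp, Rpph1, Malat1, Neat1, Miat, Meg3, Rian, Snhg11 and Cdr1, were taken by name from a table of 19878 genes. Most of them make RNA that is not translated, and they were chosen as a gauge of RNA that reaches a ribosome pull-down without a translating ribosome. The study used TRAP-seq, in which tagged ribosomes are purified and the RNA on them is sequenced. Lysate of the arcuate nucleus, the hypothalamic region in which POMC neurons lie, was bound to anti-GFP beads. The RNA held by the beads is the pull-down, and the RNA of the lysate left over is the supernatant. All mice were C57BL/6 Pomc-CreERT2; Rosa26-eGFPL10a animals that received tamoxifen in the days before collection, and the groups were P12 pull-down, P12 supernatant, P60 pull-down and P60 supernatant, with 3 replicates each, taken on postnatal days 12 and 60. Every group, supernatants included, came from tagged mice, and no mice without Cre, tag or tamoxifen are among the samples. The tag marks the cells in which the Pomc promoter drove Cre while tamoxifen was present. By the study's methods, the time from the last dose to collection was longer at P60 than at P12. Age and this interval cannot be told apart in the comparisons of ages. The labels name the tissue as hypothalamus where the protocol names the arcuate nucleus, and neither gives the sex of the mice or says whether mice were pooled. The labels name the molecule both as polyA RNA and as ribo-depleted RNA, and the protocol describes ribosomal RNA depletion with a total RNA kit.

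In TRAP, a green fluorescent tag on a ribosomal protein of the large subunit lets an antibody recover ribosomes of 1 cell class together with the messenger RNAs they are reading. RNAs that act without being translated fall into several kinds. Bc1, Rmrp and Rpph1 are short structured RNAs made by RNA polymerase III. Malat1, Neat1 and Miat are long RNAs that stay in the nucleus, Meg3 and Rian are imprinted RNAs of the Dlk1-Dio3 domain, and Snhg11 hosts a small nucleolar RNA. Cdr1 is annotated as protein-coding, but its locus is best known for a circular RNA on the opposite strand, Cdr1as, which is abundant in brain and carries many sites for the microRNA miR-7.

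In mm10 coordinates, Bc1 lies at chr7:144914470-144914623 on the plus strand, Rmrp at chr4:43492785-43493059 on the minus strand and Rpph1 at chr14:50807447-50807771 on the minus strand. Positions here are from RefSeq and exonic lengths from GENCODE, so a length can exceed the span given. The annotated exonic lengths of these RNAs were 168, 281 and 319 bases, each in 1 exon. Malat1 at chr19:5795690-5802672 and Neat1 at chr19:5824708-5845480, both on the minus strand, also have 1 exon, of 6983 and 20771 bases. Miat at chr5:112213228-112228948 on the minus strand has 9293 exonic bases in 6 blocks. Meg3 at chr12:109540996-109571729 and Rian at chr12:109603945-109661716, neighbours on the plus strand, have 18089 and 18234 exonic bases. Snhg11 lies at chr2:158375713-158386474 on the plus strand with 8521 exonic bases, and Cdr1 at chrX:61183246-61185558 on the minus strand with 1554. The strand setting of the counting is not given in the sources used here, so how reads of overlapping genes were assigned is not known. Rmrp shares 124 exonic bases with Ccdc107 on the opposite strand, Rpph1 shares 233 with Ccnb1ip1 on its own strand, and all 1554 exonic bases of Cdr1 lie opposite the long non-coding gene C230004F18Rik, from which Cdr1as arises. The Cdr1 row is therefore the count given to that locus, and linear Cdr1 and the circle cannot be told apart in it.

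The first bases of the 3 short RNAs are shown because a stretch shared with other genes can limit how reads from it are assigned (GENCODE transcripts, all in lower case, with no base marked).
Bc1-201 bases 1 to 30: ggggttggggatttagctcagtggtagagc
Rmrp-202 bases 1 to 30: aggcagctcgctctgaaggcctgtttccta
Rpph1-201 bases 1 to 30: ggcggaggaagctcatcagcggggccacgt
The start of Bc1, a domain that descends from a transfer RNA, also occurred in transcripts of 6 other genes among 141767 transcripts searched, and the starts of Rmrp and Rpph1 in 0. These 30 bases thus do not tell Bc1 from those genes, and how reads holding them were counted is not known. The next stretch of Bc1 is shown because it could bind a polyT primer or bead, and its capitals mark A.
Bc1-201 bases 77 to 106: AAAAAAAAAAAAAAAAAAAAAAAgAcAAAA
Of these 30 bases 93.3% were A, and transcripts of 2 other genes held the same run.

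For the Cdr1 locus, the mature miR-7 sequences (RefSeq, GRCm38.p6) are set beside a window of the Cdr1 transcript, with the seed, bases 2 to 8 of the microRNA, in capitals.
mmu-miR-7a-5p: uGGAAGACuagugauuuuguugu
mmu-miR-7b-5p: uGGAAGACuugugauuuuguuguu
Cdr1-201 bases 758 to 784: tggacttctgGGAAGACttggattttc
opposite strand of the same window: gaaaatccaaGTCTTCCcagaagtcca
Both miR-7 forms share the seed. Its letters, GGAAGAC, occurred 79 times in the 1554 bases of Cdr1-201 as transcribed (50.8 per kb) and 0 times on the opposite strand, so the complementary letters that miR-7 could pair with lie in the RNA of the opposite strand. Of 32851 promoter windows of RefSeq, 5.32% held GGAAGAC on either strand, at 0.185 matches per kb. These are letter matches and not measured sites.

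Sequencing depth was lowest in P12 pull-down 1, with 6305778 counts, and the other 11 libraries held 10791980 to 35249290 counts. Levels are given in CPM, counts brought to a common library size, with scaling by edgeR's trimmed mean of M values (TMM), and every replicate triplet is given in the order 1, 2, 3. Pomc, whose promoter drives Cre, stood in the P60 pull-downs at 2893, 2784 and 4771 CPM and in their supernatants at 22.8, 16.7 and 55.3 CPM. In the P12 pull-downs it stood at 11, 26.8 and 96.1 CPM and in the P12 supernatants at 6.99, 7.19 and 8.84 CPM, so the P12 pull-downs held far less Pomc and varied more. GFP was above the supernatants in all pull-downs, by 1.15 ± 0.28 on the log2 scale at P12 and by 3.26 ± 0.18 at P60.

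The 10 genes took a smaller share of the reads in every pull-down than in any supernatant. Their counts made up 0.938%, 0.820% and 0.785% of the P12 pull-downs and 3.04%, 2.74% and 3.49% of the P12 supernatants. At P60 they made up 0.488%, 0.413% and 0.641% of the pull-downs and 2.92%, 3.43% and 3.31% of the supernatants. The P60 pull-downs lay below the P12 pull-downs without overlap. Malat1, Meg3 and Bc1 held most of these reads. Malat1 alone took 1.34% ± 0.219 (SD, n = 3) of the reads of the P12 supernatants and 0.364% ± 0.0739 of those of the P12 pull-downs.

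**Figure D1:**
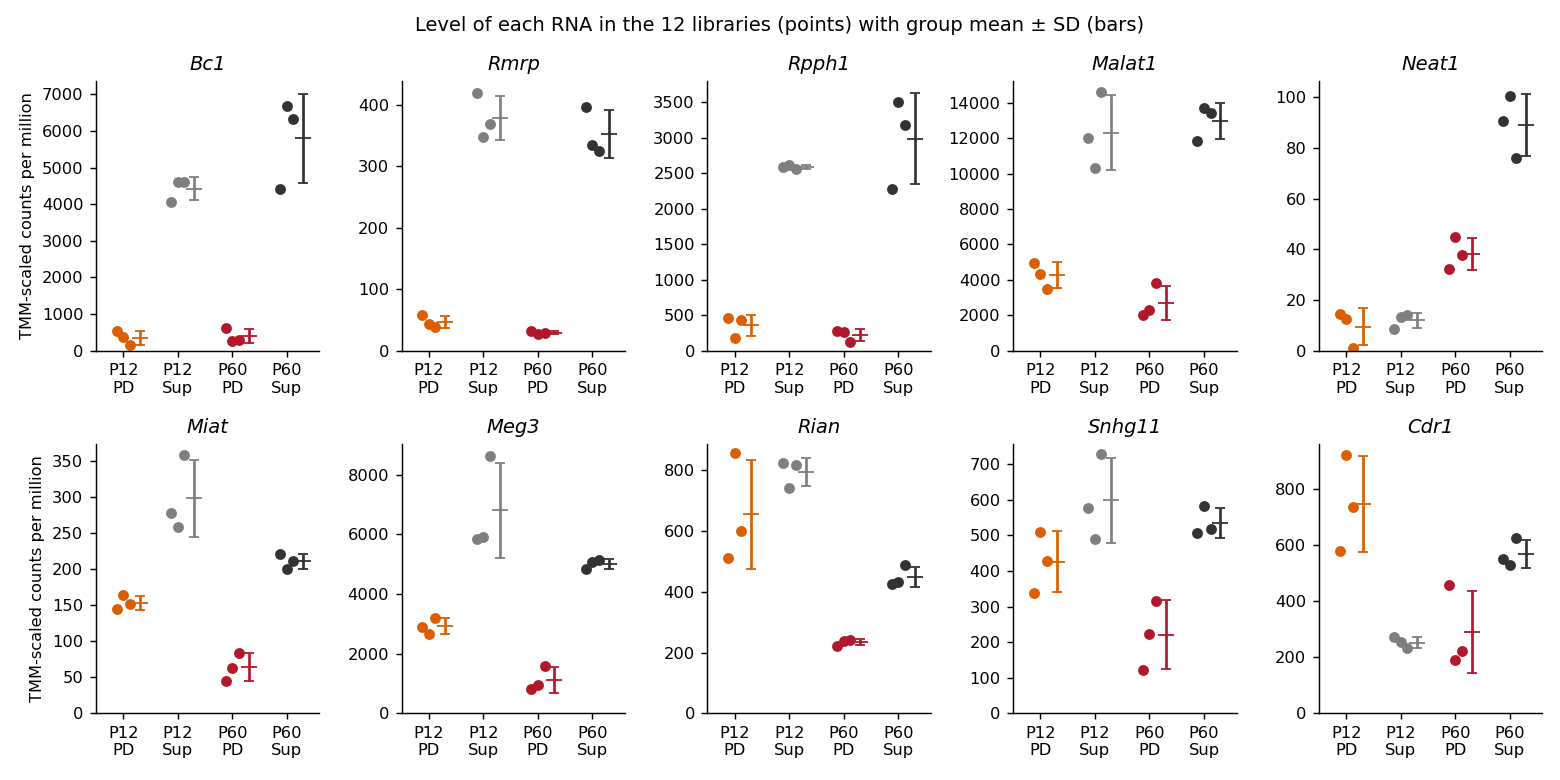
TMM-scaled CPM (vertical axes, each from 0) of the 10 RNAs in pull-down (PD) and supernatant (Sup) libraries at P12 and P60; points are the 3 libraries of a group in replicate order and bars the mean ± SD. Bc1, Rmrp and Rpph1 sit far lower in every pull-down than in any supernatant, and Cdr1 is the gene whose P12 pull-downs lie above their supernatants.

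The comparison of pull-down with supernatant at P12 asks which RNAs were held with tagged ribosomes. Of the 10 genes, 6 were called lower in the pull-down (Bc1, Rmrp, Rpph1, Malat1, Meg3 and Miat) and 1, Cdr1, higher, at an adjusted p under 0.05 in edgeR's quasi-likelihood test with Benjamini-Hochberg adjustment over all 14852 genes tested. Among all genes tested, 1.95% were called lower and 6.28% higher. The median log2 fold change of the 10 was -1.08, against -0.27 over all genes tested. At P60 all 10 were called lower, where 4.53% of 14444 genes tested were called lower and 7.11% higher, and their median was -1.97, against -0.10 over all genes. Scaling by library size alone turned the balance of all calls, from 933 higher and 289 lower to 534 and 1390 at P12 and from 1027 and 655 to 614 and 1790 at P60, and kept all calls of the 10. All 10 passed the filter on low counts in each comparison. In bulk samples such as these, fewer cells of a type and less RNA per cell cannot be told apart.

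**Figure D2:**
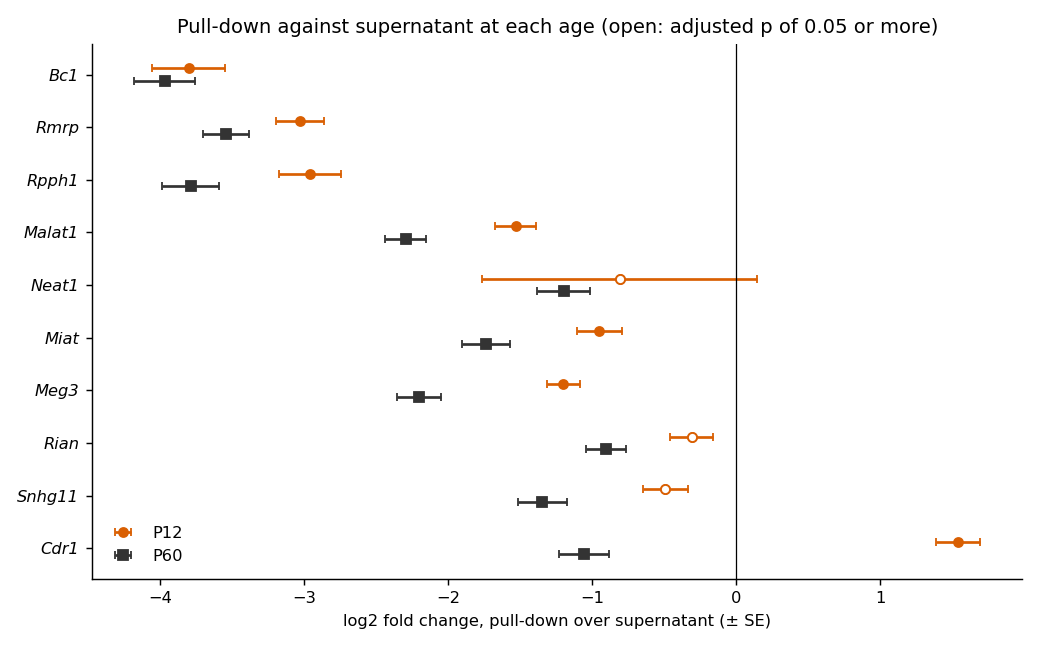
Log2 fold change of pull-down over supernatant (horizontal axis, ± SE from edgeR) of each RNA at P12 (circles) and P60 (squares); open symbols missed the adjusted p threshold of 0.05. The short RNAs lie near -3 to -4 at both ages, and Cdr1 lies to the right of 0 at P12 and to the left at P60.

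The short RNAs had the lowest pull-down to supernatant ratios of the 10. Bc1, a dendritic RNA that in rodents represses the start of translation, stood at 528, 378 and 158 CPM in the P12 pull-downs and at 4056, 4619 and 4612 CPM in the P12 supernatants. At P60 the pull-downs held 609, 255 and 304 CPM and the supernatants 4415, 6684 and 6316 CPM. The groups did not overlap at either age, and the pull-downs spread more than 2-fold among themselves. The log2 fold change was -3.80 ± 0.25 at P12 (adjusted p = 2.15e-08) and -3.97 ± 0.21 at P60 (adjusted p = 1.35e-17), or 13.9-fold and 15.6-fold lower.

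Rmrp, the RNA of RNase MRP, which cleaves ribosomal RNA precursors, stood at 57.3, 44.0 and 39.4 CPM in the P12 pull-downs and 419, 348 and 368 CPM in their supernatants. At P60 it stood at 31.6, 27.7 and 29.5 CPM in the pull-downs and 397, 334 and 325 CPM in the supernatants. Its libraries were close within each group and the fractions lay far apart, with a log2 fold change of -3.03 ± 0.17 at P12 (adjusted p = 2.01e-09) and -3.54 ± 0.16 at P60 (adjusted p = 1.19e-19). Ccdc107, the gene on the opposite strand, was not called at either age (0.31 ± 0.78 and 0.80 ± 0.42, adjusted p = 0.871 and 0.255).

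Rpph1, the catalytic RNA of RNase P, which trims transfer RNA precursors, stood at 455, 186 and 432 CPM in the P12 pull-downs and 2584, 2619.7 and 2567 CPM in the P12 supernatants. At P60 the values were 273, 269 and 122 CPM and 2275, 3508 and 3177 CPM. Every pull-down was below every supernatant, by -2.96 ± 0.21 (adjusted p = 5.11e-08) at P12 and by -3.79 ± 0.19 (adjusted p = 5.39e-18) at P60 on the log2 scale. Ccnb1ip1, whose exons overlap Rpph1 on the same strand, had 0 counts in the pull-downs and at most 8 in a supernatant.

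Pair by pair, the level of the short RNAs in the pull-down was a small percentage of that in the supernatant. Bc1 in the pull-down came to 13%, 8.18% and 3.43% of the same-numbered supernatant at P12 and to 13.8%, 3.82% and 4.81% at P60. For Rmrp the percentages were 13.7%, 12.6% and 10.7% at P12 and 7.95%, 8.29% and 9.08% at P60. For Rpph1 they were 17.6%, 7.09% and 16.8% at P12 and 12.0%, 7.68% and 3.83% at P60. The percentages of Rmrp were the most even, and the highest of all was 17.6%. They compare scaled levels in separate libraries and do not give the part of the lysate's RNA that the beads carried over.

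**Figure D3:**
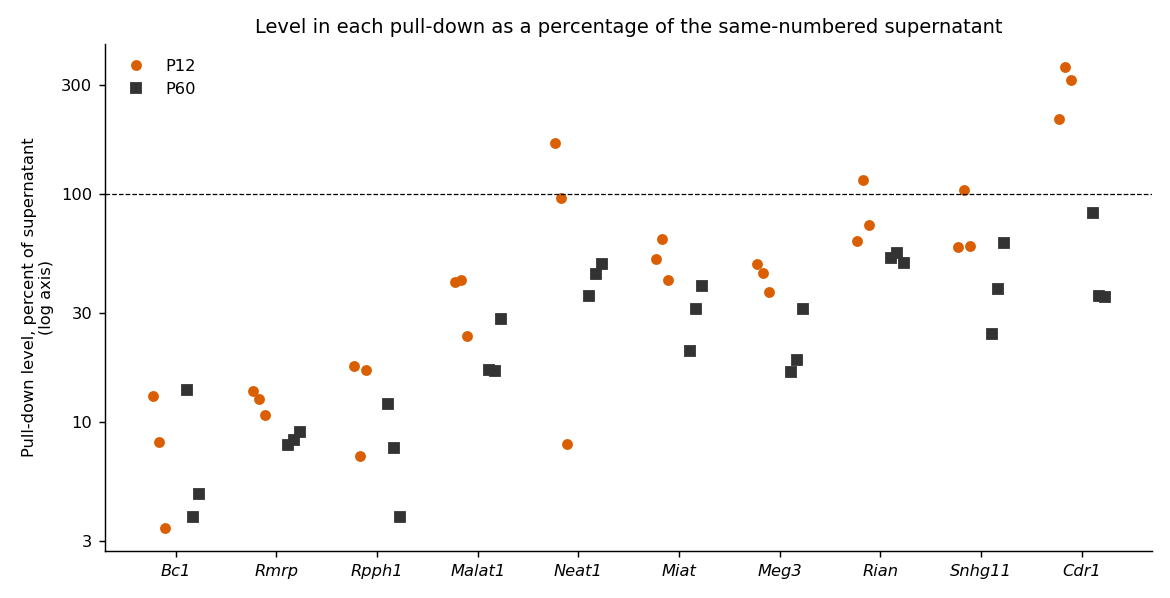
Level of each RNA in a pull-down as a percentage of the same-numbered supernatant (vertical log axis, dashed line at equal levels), with 1 point for each of 3 pairs at P12 (circles) and P60 (squares). Bc1, Rmrp and Rpph1 lie between 3.43% and 17.6%, the nuclear and imprinted RNAs mostly between 16.6% and 63.5%, and Cdr1 at P12 between 213% and 361%.

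The 3 short RNAs share their length class with few other genes. In the class of up to 400 exonic bases, 42 genes were tested at P12 with a median log2 fold change of -1.996, and 4 of them, these 3 included, were called lower and 0 higher. At P60 36 were tested with a median of -1.79, 5 called lower and 4 higher. At P12 the median was higher in longer classes, at -0.74 for 1495 genes of over 1000 to 2000 bases and 0.08 for 2669 genes of over 8000 bases. At P60 the medians of those classes were -0.14 and -0.02. With a correction for the trend with length, the short RNAs at P12 stood nearer 0, Bc1 at -2.33, Rmrp at -1.66 and Rpph1 at -1.61, and each was still called lower (adjusted p = 2.11e-05, 7.08e-05 and 0.00119). At P60 they stood at -3.46, -3.18 and -3.45.

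**Figure D4:**
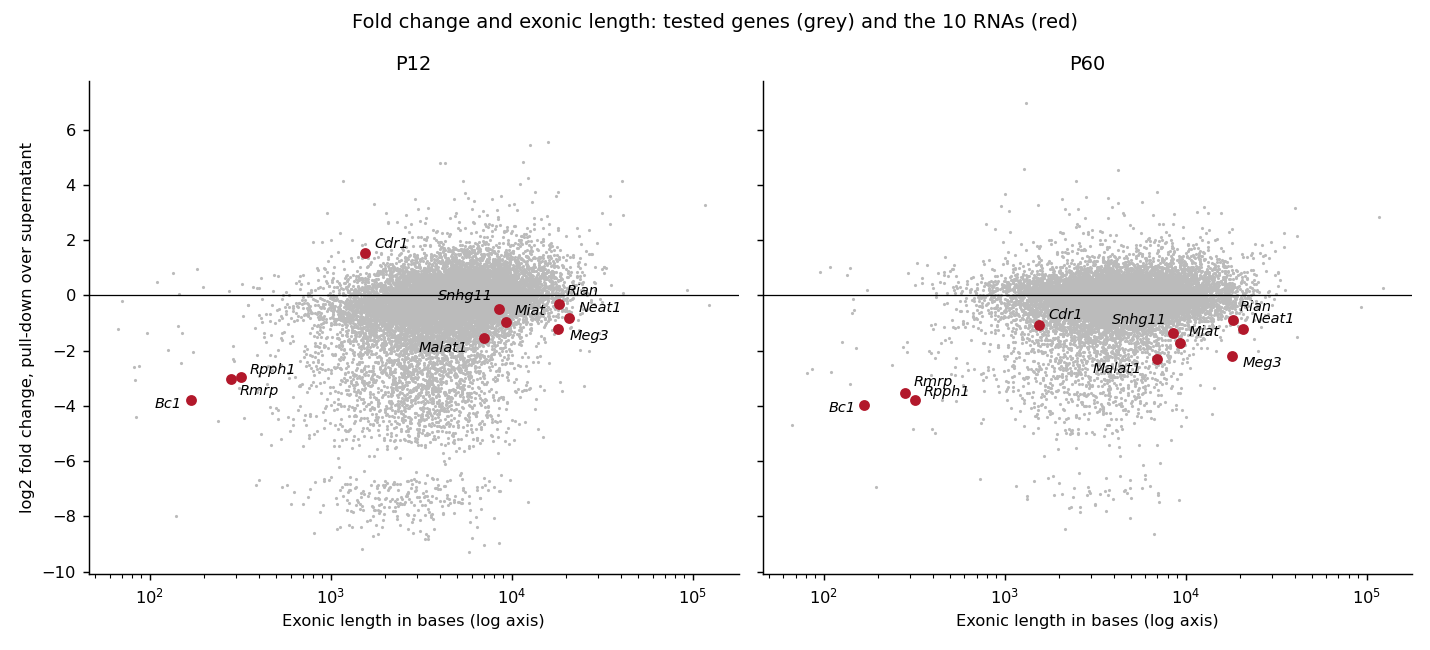
Log2 fold change of pull-down over supernatant (vertical axis) against exonic length in bases (horizontal log axis) at P12 and P60, with every tested gene that has a length in grey and the 10 RNAs in red. At P12 the grey cloud tilts upward with length, the short RNAs lie at -2.96 to -3.80, and Cdr1, at 1.54, lies above most genes of its length.

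Other small structured RNAs gave no call. Of 96 such rows in the table, 15 passed the filter at P12 and 13 at P60, and 0 were called in either direction by edgeR, with medians of -1.35 and -1.69. DESeq2 also called 0, and at an unadjusted p under 0.05 edgeR counted 1 lower at P12 and 2 lower at P60. Over all genes tested, edgeR called 1.95% lower and 6.28% higher at P12, and 4.53% and 7.11% at P60. For so few rows, 0 calls are near those shares. The lowest fitted values were Scarna3a at -7.99 ± 3.70 at P12 and Snora74a at -6.95 ± 3.08 at P60, and the highest were Rnu11 at 0.81 ± 1.54 and Snora7a at 1.01 ± 1.92. The errors of these rows are large because counts were few, and fitted values of genes with libraries at 0 depend on the prior count.

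Of the nuclear RNAs, Malat1 and Miat were called lower in the pull-down at both ages and Neat1 at P60, each with a ratio nearer 1 than those of the short RNAs. Malat1, a nuclear speckle RNA, was the most abundant of the 10 by CPM and stood at 4961, 4324 and 3494 CPM in the P12 pull-downs and at 12026, 10337 and 14583 CPM in the P12 supernatants. At P60 the pull-downs held 1998, 2286 and 3821 CPM and the supernatants 11820.1, 13682 and 13444 CPM. No pull-down reached a supernatant, and the log2 fold change was -1.53 ± 0.14 at P12 (adjusted p = 8.58e-07) and -2.30 ± 0.14 at P60 (adjusted p = 2.40e-15). The pull-down level was 41.3%, 41.8% and 24% of the supernatant level at P12 and 16.9%, 16.7% and 28.4% at P60.

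Miat, a nuclear RNA of neurons that binds splicing factors, stood at 145, 164 and 151 CPM in the P12 pull-downs and 278, 258 and 358 CPM in the P12 supernatants. At P60 it stood at 45.2, 62.8 and 83.7 CPM in the pull-downs and 221, 201 and 211 CPM in the supernatants. The fractions were separate at both ages, with log2 fold changes of -0.95 ± 0.16 (adjusted p = 0.000616) and -1.74 ± 0.17 (adjusted p = 2.99e-10).

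Neat1, the scaffold of nuclear paraspeckles, was scarce at P12. Its counts were 82, 186 and 19 in the P12 pull-downs and 233, 454 and 527 in the P12 supernatants, or 14.6, 12.7 and 1.13 CPM against 8.67, 13.2 and 14.1 CPM. The groups overlapped, 1 pull-down lay above its supernatant, and P12 pull-down 3 was far below the other two. The log2 fold change was -0.81 ± 0.96 (95% interval -2.84 to 1.22, adjusted p = 0.708), and without the pair numbered 3 it turned to 0.33, so the P12 data do not settle a direction. At P60 the pull-downs held 32.3, 44.8 and 37.7 CPM and the supernatants 90.8, 101 and 76.2 CPM, without overlap. There the log2 fold change was -1.20 ± 0.18 (adjusted p = 7.29e-06), but with 1 estimate of the spread over all 12 libraries the adjusted p was 0.147.

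Of the imprinted pair, Meg3 was called lower in the pull-down at both ages and Rian at P60. Meg3, expressed from the maternal chromosome, stood at 2903, 2661 and 3199.6 CPM in the P12 pull-downs and 5859, 5921 and 8639 CPM in the P12 supernatants. At P60 it stood at 803, 946 and 1605 CPM in the pull-downs and 4823, 5069 and 5133 CPM in the supernatants. The fractions did not overlap, with log2 fold changes of -1.20 ± 0.12 at P12 (adjusted p = 1.62e-06) and -2.20 ± 0.15 at P60 (adjusted p = 3.32e-14).

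Rian, the maternal RNA next to Meg3 that hosts many small nucleolar RNAs, stood at 510.3, 855 and 599 CPM in the P12 pull-downs and 822, 742 and 816 CPM in the P12 supernatants. P12 pull-down 2 lay above all 3 supernatants and the other two below them. The log2 fold change of -0.31 ± 0.15 was not called (95% interval -0.63 to 0.01, adjusted p = 0.292), and without the pair numbered 2 it was -0.55 and was called (adjusted p = 0.00576). At P60 the pull-downs, at 222, 239 and 243 CPM, were all below the supernatants, at 425, 433 and 487 CPM, and the log2 fold change was -0.91 ± 0.14 (adjusted p = 8.20e-06).

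Other genes of the Dlk1-Dio3 region gave 0 lower calls between fractions, also with DESeq2 and at an unadjusted p under 0.05. Of 8 such rows, 6 were tested, and at P12 edgeR called 0 in either direction, with 1 higher at the unadjusted p (median 0.52), from Dlk1 at -0.06 ± 0.20 to Wdr25 at 0.88 ± 0.86. At P60 it called 2 higher and 0 lower (median 0.19), from Wdr25 at -0.72 ± 0.53 to Wars at 0.64 ± 0.17. Among all genes tested, 1.95% were called lower and 6.28% higher at P12, and 4.53% and 7.11% at P60. With 6 genes, 0 lower calls are near those shares. Dlk1 is a paternally expressed protein-coding gene, and Wars, at the edge of the region, encodes tryptophanyl-tRNA synthetase.

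Snhg11, a neuronal host gene that GENCODE lists as protein-coding and RefSeq as long non-coding, stood at 339, 509 and 429 CPM in the P12 pull-downs and 577, 491 and 727 CPM in the P12 supernatants. The fractions overlapped through pair 2, whose pull-down and supernatant were level. The log2 fold change of -0.49 ± 0.16 missed the threshold (95% interval -0.82 to -0.16, adjusted p = 0.0671), and without the pair numbered 2 it was -0.75 and was called (adjusted p = 0.00011). At P60 the pull-downs held 123, 224 and 316 CPM and the supernatants 506, 583 and 517 CPM, without overlap, and the log2 fold change was -1.35 ± 0.17 (adjusted p = 1.55e-07).

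Other host genes of small nucleolar RNAs gave 0 calls by edgeR in either direction, among 11 tested at P12 (median -0.34) and 10 at P60 (median 0.47). DESeq2 also called 0, and 2 were higher at P60 at an unadjusted p under 0.05. Among all genes tested, 1.95% were called lower and 6.28% higher at P12, and 4.53% and 7.11% at P60. For so few genes, 0 calls are near those shares. At P12 the host genes ran from Snhg6 at -2.67 ± 1.92 to Snhg9 at 0.97 ± 2.68, and at P60 from Snhg3 at -1.44 ± 1.55 to Snhg10 at 1.10 ± 1.07. Of 24 tested genes in a list of other long non-coding RNAs, 1 was called higher and 1 lower at P12 (median -0.47) and 0 higher and 4 lower at P60 (median -0.61). Their extremes were 2610307P16Rik at -2.65 ± 3.10 and Emx2os at 1.63 ± 1.53 at P12, and Nespas at -3.65 ± 2.48 and Six3os1 at 0.96 ± 0.38 at P60, none of which was called. Over all genes that RefSeq types as lncRNA other than the 10, a set added after the values were seen that also holds genes of the list just given, 4 of 594 tested were called lower and 1 higher at P12 (median -1.30), and 19 of 541 lower and 2 higher at P60 (median -0.88). Translated messengers of housekeeping and cytoskeletal genes were read for comparison. Of 24, 10 were called higher and 3 lower at P12 (median 0.32), with Calm2 at -0.77 ± 0.12 the lowest, and 9 higher and 0 lower at P60 (median 0.31), from Tbp at -0.50 ± 0.31 to Ldha at 1.04 ± 0.15. Scaling by library size alone moved the median of all genes by -0.35 at P12 and by -0.22 at P60, which at P12 is more than the median of these messengers.

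Cdr1 was the 1 gene of the 10 that was called higher in a pull-down than in the supernatant. In the P12 pull-downs it reached 577, 921 and 736 CPM, against 270.5, 255 and 231 CPM in the P12 supernatants. Every P12 pull-down was above every supernatant, at 213%, 361% and 318% of the same-numbered one. The log2 fold change was 1.54 ± 0.15 (adjusted p = 2.47e-06), or 2.91-fold higher, and it ranked 322nd from the top of 14852 genes. Of 1495 genes in its length class of over 1000 to 2000 exonic bases, 10 were called higher at P12, and with the correction for length its value was 2.25. At P60 the order was turned, with 456, 189 and 222 CPM in the pull-downs and 551, 528 and 625 CPM in the supernatants. All 3 pull-downs lay below the supernatants, P60 pull-down 1 much less so than the other two. Here the log2 fold change was -1.06 ± 0.17 (adjusted p = 1.67e-05), and without the replicate block it was -0.95 and was not called (adjusted p = 0.0694).

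The gene opposite Cdr1 was called at neither age. C230004F18Rik stood at 4.79, 11.1 and 5.58 CPM in the P12 pull-downs and 8.11, 6.76 and 11.6 CPM in the P12 supernatants, with log2 fold changes of -0.37 ± 0.88 at P12 (adjusted p = 0.862) and -0.88 ± 0.48 at P60 (adjusted p = 0.281). Its levels were low and its P12 groups overlapped. Of the genes linked to miR-7 that the table holds, Hnrnpk, whose intron carries a miR-7 precursor, was tested and was not called either, at 0.43 ± 0.14 at P12 (adjusted p = 0.0813, called higher by DESeq2) and -0.01 ± 0.14 at P60 (adjusted p = 0.983). Some astrocyte markers also differed between fractions. The summed level of 5 astrocyte markers was 979.9 to 1226 CPM in the pull-downs and 665 to 669.6 CPM in the supernatants at P12. At P60 it was 619 to 838 CPM in the pull-downs and 727 to 798 CPM in the supernatants. Of these 5, 2 were called higher and 0 lower in the pull-down at P12, Gfap at 1.48 ± 0.16, while their median was -0.21, and 0 were called higher and 2 lower at P60. In the P60 against the P12 supernatants, where Cdr1 was called higher, 1 was called higher and 2 lower (median -0.24). The shares over all genes tested were 6.28% higher and 1.95% lower between fractions at P12, and 7.11% and 4.53% at P60. In the supernatants by age they were 20.9% and 20.8%. The part of astrocytes in the Cdr1 values was not tested.

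The test of the difference between ages asks whether the ratio of pull-down to supernatant changed from P12 to P60. All 10 fitted differences were below 0, with a median of -0.81 against 0.04 over 15311 genes tested, and 2 of the 10, Cdr1 and Meg3, were called lower and 0 higher. Over all genes 0.686% were called lower and 0.438% higher. For Cdr1 the difference was -2.63 ± 0.28 on the log2 scale (95% interval -3.20 to -2.06, adjusted p = 6.65e-06), a ratio 6.20-fold lower at P60. For Meg3 it was -1.04 ± 0.23 (adjusted p = 0.0202), with 49.5%, 45.0% and 37.0% of the supernatant level in the P12 pull-downs and 16.6%, 18.7% and 31.3% in the P60 pull-downs, which did not overlap. The Meg3 call did not hold without the replicate block (-0.95, adjusted p = 0.170), with the length correction (-0.77, adjusted p = 0.381), or without the P60 pair numbered 1 (-0.79, adjusted p = 0.0835) or 2 (-0.94, adjusted p = 0.0672).

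The other 8 differences missed the threshold, which does not show equal ratios. Bc1 had the difference nearest to 0, -0.20 ± 0.40 (95% interval -1.02 to 0.62), and Neat1 the widest interval, -1.90 to 0.94 around -0.48. Rmrp stood at -0.55 ± 0.21, Rpph1 at -0.86 ± 0.33 and Rian at -0.63 ± 0.22. Malat1, Miat and Snhg11 stood at -0.80 ± 0.24, -0.82 ± 0.25 and -0.89 ± 0.27, with adjusted p of 0.14, 0.13 and 0.144. Without a filter on low counts, Rpph1, Malat1, Miat and Snhg11 also passed and 6 of the 10 were called lower. That setting also gave more calls over all genes, both higher and lower, so the added calls are not particular to these RNAs. Over all genes the median of this difference was lower in longer classes, from 0.61 for 51 genes of up to 400 exonic bases to -0.19 for 2683 genes of over 8000. Pomc itself had a difference of 4.80 ± 0.41 and GFP of 2.08 ± 0.29, above 0 where all 10 fitted values were below it.

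The comparison of P60 with P12 supernatants shows how these RNAs differed with age in the lysate left by the beads, which also holds unbound RNA of the tagged cells. Of the 10, 3 were called higher (Neat1, Cdr1 and Bc1) and 3 lower (Rian, Miat and Meg3), where 20.9% of 15251 genes tested were called higher and 20.8% lower. Neat1 rose from 12.0 ± 2.91 to 89.2 ± 12.3 CPM (mean ± SD, n = 3), by 2.88 ± 0.12 on the log2 scale (adjusted p = 6.41e-18). This 7.35-fold rise ranked 47th from the top. Cdr1 rose by 1.16 ± 0.08 (adjusted p = 1.65e-13), and Bc1 rose by 0.38 ± 0.10 (adjusted p = 0.00259, 0.0835 with DESeq2), P60 supernatant 1 lying within the P12 range of Bc1.

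The imprinted RNAs and Miat were lower in the P60 supernatants. Rian fell by 0.83 ± 0.07 (adjusted p = 7.91e-11), from 793 ± 44.6 to 448 ± 33.7 CPM (mean ± SD, n = 3). Miat fell by 0.51 ± 0.09 (adjusted p = 1.64e-05) and Meg3 by 0.45 ± 0.10 (adjusted p = 0.000463). In the same domain Dlk1 was called higher at P60, by 1.20 ± 0.08. With 1 spread over all 12 libraries, Bc1, Miat and Meg3 were not called (adjusted p = 0.930, 0.202 and 0.438). Malat1 (0.07 ± 0.09), Rmrp (-0.11 ± 0.08), Rpph1 (0.20 ± 0.10) and Snhg11 (-0.17 ± 0.09) were not called, with 95% intervals that all lay within -0.36 to 0.40.

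In the supernatants, oligodendrocyte markers moved with Neat1. All 5 of them were called higher in the P60 supernatants, with a median of 1.19, and their summed level was 823 to 858 CPM at P12 and 1371 to 1461 CPM at P60. Over all genes tested there, 20.9% were called higher and 20.8% lower. Over the 12 libraries, the tested genes most like Neat1 in log2 CPM were Opalin (r = 0.982) and Mog (r = 0.974), both genes of myelinating oligodendrocytes. These r values include the differences between the groups. Opalin had 11, 14 and 0 counts in the P12 pull-downs, and Neat1 had 19 in P12 pull-down 3. The part of oligodendrocytes in the Neat1 values was not tested. In the pull-downs, where Neat1 was higher in every P60 library, the same markers summed to 774 to 1045 CPM at P12 and 723 to 761 CPM at P60, with 1 called higher and 1, Mbp, lower at P60 (-1.01 ± 0.20). The shares over all genes tested in the pull-downs by age were 1.89% higher and 3.11% lower.

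In the pull-downs, 4 of the 10 were called lower at P60 than at P12 (Rian, Meg3, Cdr1 and Miat) and 0 higher, where 3.11% of 13570 genes tested were called lower and 1.89% higher. Rian fell by 1.46 ± 0.21 (adjusted p = 0.000774), Meg3 by 1.37 ± 0.24 (adjusted p = 0.00329) and Miat by 1.24 ± 0.25 (adjusted p = 0.00858), each without overlap between ages. Cdr1 fell by 1.35 ± 0.28 (adjusted p = 0.0103) while it rose in the supernatants, and the call was lost without P12 pull-down 2 (adjusted p = 0.0695), P60 pull-down 2 (0.0750) or P60 pull-down 3 (0.0987). The Miat call was lost without P60 pull-down 2 (adjusted p = 0.0508). Neat1 was higher in every P60 pull-down than in any P12 pull-down, yet its 2.06 ± 0.67 missed the threshold (adjusted p = 0.0933, 0.0350 with DESeq2). Snhg11 stood at -0.92 ± 0.28 (adjusted p = 0.0676), Malat1 at -0.64 ± 0.24, Rpph1 at -0.68 ± 0.33, Rmrp at -0.64 ± 0.35 and Bc1 at 0.15 ± 0.36. The comparisons of ages and the test of the difference use the same libraries and are not independent of each other.

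**Figure D5:**
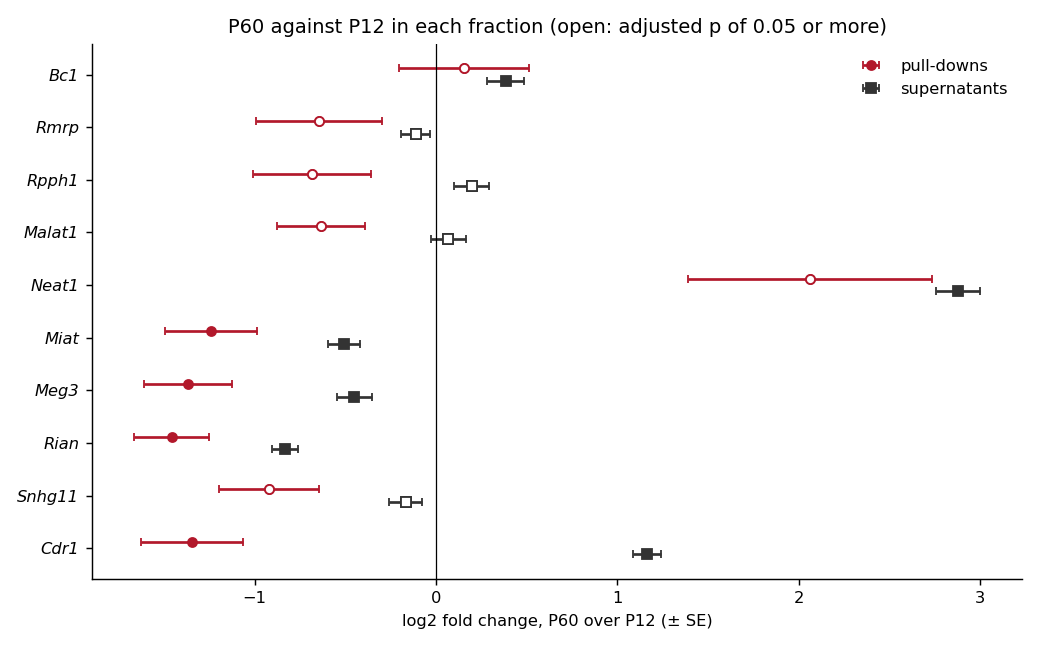
Log2 fold change of P60 over P12 (horizontal axis, ± SE from edgeR) of each RNA in the pull-downs (circles) and the supernatants (squares); open symbols missed the adjusted p threshold of 0.05. Neat1 lies far to the right in both fractions, and Cdr1 lies at -1.35 in the pull-downs and at 1.16 in the supernatants.

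Cdr1 is on the X chromosome, and sex-linked genes differed between the ages. Of 5 tested, 4 were called higher and 1 lower in the P60 than in the P12 supernatants, Xist, expressed in females, at -1.32 ± 0.19 and the Y-linked Ddx3y at 1.29 ± 0.11. Over all genes tested there, 20.9% were called higher and 20.8% lower. The part of sex in the values by age was not tested. Between fractions, 0 of 5 were called in either direction at P12 by edgeR, and 1 higher by DESeq2 and at an unadjusted p under 0.05, from Eif2s3y at -0.64 ± 1.62 to Ddx3y at 1.13 ± 0.34 (median 0.56). At P60 1 was called higher and 0 lower, from Uty at -0.84 ± 0.38 to Ddx3y at 0.72 ± 0.18 (median -0.18). The shares over all genes tested between fractions were 6.28% higher and 1.95% lower at P12, and 7.11% and 4.53% at P60. For 5 genes, 0 or 1 calls are near those shares.

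Markers of cell types were read for the fractions too. The shares over all genes tested were 6.28% called higher and 1.95% lower at P12, and 7.11% and 4.53% at P60. In a list of 4 or 5 genes, 0 or 1 calls are near those shares. Of 5 neuronal markers 0 were called higher and 2 lower in the pull-down at both ages, with medians of -0.21 and -0.38, from Syt1 at -0.62 ± 0.14 to Rbfox3 at -0.12 ± 0.17 at P12 and from Snap25 at -0.57 ± 0.14 to Elavl4 at 0.31 ± 0.15 at P60. Of 5 tested arcuate markers 1, Pomc, was called higher and 0 lower at each age, with medians of -0.37 and -0.57, and the lowest were Tac2 at -3.13 ± 2.01 and Agrp at -1.05 ± 0.93. Oligodendrocyte markers were called lower in 2 of 5 at P12 and 4 of 5 at P60 (medians -0.50 and -0.88), Mag highest at 0.76 ± 0.35 and -0.11 ± 0.20. At P12 Mbp stood at 0.44 ± 0.13 (adjusted p = 0.0501 in edgeR). DESeq2 called 1 of the 5 higher and 2 lower at P12, and an unadjusted p under 0.05 gave 2 and 2. Their summed P12 levels overlapped, at 774 to 1045 CPM in the pull-downs and 823 to 858 CPM in the supernatants. At P60 they were 723 to 761 and 1371 to 1461 CPM. Astrocyte medians were -0.21 and -0.35, the markers running from Aqp4 at -0.64 ± 0.46 to Gfap at 1.48 ± 0.16 at P12 and from Gja1 at -1.05 ± 0.28 to Aldoc at 0.07 ± 0.14 at P60. Of 5 microglial markers edgeR called 0 at either age, as did DESeq2 and an unadjusted p under 0.05 (medians -1.53 and -1.34), from C1qa at -3.85 ± 3.02 and Tmem119 at -2.83 ± 1.96 to Cx3cr1 at 0.61 ± 0.89 and Cx3cr1 at -0.45 ± 0.71. Of 4 endothelial markers it called 0 at P12, also at an unadjusted p under 0.05, where DESeq2 called 1 lower, and 1 higher at P60 (medians -0.57 and -0.28). They ran from Flt1 at -4.09 ± 2.66 to Tek at 1.04 ± 2.12 at P12 and from Pecam1 at -2.64 ± 1.89 to Flt1 at 2.36 ± 0.58 at P60. Microglial markers summed to 5.10 to 31.6 CPM and endothelial ones to 4.09 to 35.1 CPM over all libraries. Pituitary hormone markers were too low to be tested between fractions, at 0 to 14 CPM in sum.

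Per kilobase of exon, which adjusts for annotated length only, the order in the P12 supernatants was led by the short RNAs. How evenly RNAs of such different lengths entered the libraries was not tested. Bc1 stood at 26364 ± 1923 CPM per kb (mean ± SD, n = 3), Rpph1 at 8119.6 ± 84.4, Malat1 at 1764 ± 306 and Rmrp at 1348 ± 129.9. The last pair, Malat1 and Rmrp, overlapped when 1 SD was allowed on each side. Meg3 followed at 376 ± 87.7 and Cdr1 at 162 ± 12.7. Snhg11 stood at 70.2 ± 14, Rian at 43.5 ± 2.45 and Miat at 32.1 ± 5.70, and Neat1 closed the order at 0.577 ± 0.140. In the P12 pull-downs Bc1 still led, at 2112 ± 1108 CPM per kb, above Rpph1 at 1121 ± 468, by less than the sum of their SDs. Malat1 at 610.0 ± 105 and Cdr1 at 479 ± 111 came next and lay within their spread, ahead of Rmrp at 167 ± 33.2 and Meg3 at 161 ± 14.9. Snhg11 at 49.99 ± 9.98 and Rian at 35.9 ± 9.80 were followed by Miat at 16.5 ± 1.03 and Neat1 at 0.455 ± 0.350. With the length of the longest transcript in place of all exons, Meg3 stood at 201 and Rmrp at 167, and Rian at 81.0 and Snhg11 at 72.6, so that both pairs changed order in the P12 pull-downs.

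At P60 the order per kilobase in the supernatants had the same first places, with Bc1 at 34555 ± 7248 CPM per kb, Rpph1 at 9363 ± 1999.9, Malat1 at 1859 ± 145 and Rmrp at 1254 ± 139.9. Cdr1, at 365 ± 32.7, was above Meg3, at 277 ± 9.04, by more than their SDs. In the P60 pull-downs Bc1 stood at 2317 ± 1141, Rpph1 at 694 ± 271 and Malat1 at 387 ± 140.3, ahead of Cdr1 at 186 ± 93.7, Rmrp at 105 ± 6.86 and Meg3 at 61.8 ± 23.7. Neat1 was the lowest in both, at 4.29 ± 0.591 in the supernatants and 1.84 ± 0.301 in the pull-downs.

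Across the 12 libraries, which hold the 4 groups and so share their differences, most of the 10 moved together in log2 CPM. Meg3 and Miat were each other's closest gene (r = 0.989), followed by Grik2 for Meg3 (r = 0.969) and Dlx6as1 for Miat (r = 0.971). Snhg11 was most like Miat (r = 0.950) and Meg3 (r = 0.931), and Rian most like Opcml (r = 0.971) and Scai (r = 0.967). Bc1 was most like Atp6v1g2 (r = 0.977) and Lrrc50 (r = 0.968), Rmrp most like Gpr34 (r = 0.984) and Bcl2l12 (r = 0.980), and Rpph1 most like Rtn4 (r = 0.973) and Hist1h4h (r = 0.970). Malat1 was most like Rorb (r = 0.963) and Rmrp (r = 0.962). Cdr1 had the lowest best match, Zfp281 (r = 0.923), followed by Wdr25 (r = 0.912), and its r with the other 9 genes ran from -0.128 (Neat1) to 0.241 (Rian). Neat1 ran from -0.510 (Rian) to 0.441 (Bc1) with the others.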

How the data were processed

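The 12 libraries were made by the authors from pull-down and supernatant RNA with a ribosomal RNA depletion kit and the SMARTer stranded total RNA kit, as single-end reads. The submitters' processing notes name FastQC, TopHat2 2.0.13, Bowtie2 2.2.1, HTSeq and mm10, and no source used here gives the strand setting of the counting. What the authors deposited are unnormalized read counts of 19878 genes, and each of 12 single-sample files equalled its column of the table. No count was seen for 635 genes.

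Counts were analysed with edgeR 4.0.16 in R 4.3.3 (TMM, filterByExpr, quasi-likelihood test, Benjamini-Hochberg adjustment, threshold 0.05). Fold changes are given ± SE, with 95% intervals. CPM used TMM factors over all 12 libraries, and correlations used log2 CPM with a prior count of 2. Lengths are exonic unions of GENCODE (98.3% of genes had one), positions come from RefSeq. The members and lists were chosen with earlier results of these data known. The text names all 10 genes in each comparison, the lowest and highest fold change of each list at P12 and P60, and the 2 genes most like each member, except for items that are not reported here. The fits were tested on simulated data.

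Within an age, the replicate number entered as a block, since the study's model used paired samples. As a check, the correlation between the deviations of pull-down and supernatant with 1 number was 0.0126 to 0.0379 for the P12 pairs and 0.00256 to 0.0371 for the P60 pairs, so the pairing rests on that model. Without the block, the P60 value of Cdr1 was -0.95 and not called (adjusted p = 0.0694). Between ages no block was used. Nothing says that replicates of a group came from separate animals beyond their being separate experiments, so p-values measure the spread between these libraries. Replicates differed by more than sampling noise (chi-square divided by its degrees of freedom, 9.86 to 92.2). Alternatives were other scalings, DESeq2 1.42.0, no filter, a lowess length correction (span 0.3), other blocks, a fit over all 12 libraries and leaving out each pair or library. The precision is set by 3 libraries a group.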

Additional observations from a re-analysis of the deposited data

Results flagged for a closer look

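The ratio of pull-down to supernatant differed between the ages, by the test of the difference itself, for Cdr1 and Meg3. For Cdr1 the difference, P60 less P12, was -2.63 on the log2 scale (adjusted p = 6.65e-06 in edgeR), with the pull-down above the supernatant in 3 of 3 pairs at P12 and below it in 3 of 3 pairs at P60, and it was called under all 13 alternatives (-3.23 to -2.42). For Meg3 the difference was -1.04 (adjusted p = 0.0202), the pull-down being below the supernatant in 3 of 3 pairs at both ages, and it was not called under 4 of 13 alternatives (-1.31 to -0.77). Groups of 3 libraries are too small for a check of single libraries that stand apart.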

How the results depend on the processing

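Each of 50 fold changes of the 10 genes was recomputed under 11 to 14 alternatives, 630 values in all. In 569 the direction and the side of the threshold held, 14 were no longer called, 36 were newly called and 11 changed sign. All sign changes were of values that had not been called. With the length correction Bc1 stood at -0.95 in the pull-downs by age and Rmrp at 0.094 in the supernatants by age. Leaving out 1 pair or library at a time moved Neat1 at P12 between -1.77 and 0.33, the difference between ages of Bc1 between -0.69 and 0.24 and of Neat1 between -1.48 and 0.35, Bc1 in the pull-downs by age between -0.32 and 0.58, and Malat1 in the supernatants by age between -0.043 and 0.20. The number of the 10 called lower in the test of the difference went from 2 to 6 with no filter and to 1 with no replicate block, and was 1 to 3 when single pairs were left out. With no filter, the calls of all genes in that test also rose, both higher and lower. In the pull-downs by age, 1 was called higher with DESeq2, with no filter and in the fit over all 12 libraries, which called 7 lower, and leaving out single libraries gave 0 to 1 higher and 2 to 5 lower. In the supernatants by age the fit over all 12 libraries called 1 lower. The cause of these shifts was not tested. The replicate block changed, between fractions, the Cdr1 call at P60 and the Meg3 difference given above. As a block in the comparisons of ages, where numbers do not pair mice, it added the Snhg11 call in the pull-downs (-1.01). Scaling by library size alone moved the median of all genes by -0.35 at P12 and -0.22 at P60 and added calls of Rian (-0.66) and Snhg11 (-0.84) at P12, with no call of the 10 lost. Over all genes it changed the P12 calls from 933 higher and 289 lower to 534 and 1390, and the P60 calls from 1027 and 655 to 614 and 1790. Over the alternatives the calls of all genes in the test of the difference ran from 22 to 223 higher and from 37 to 226 lower, in the pull-downs by age from 86 to 1292 and from 161 to 1469, and in the supernatants by age from 303 to 3521 and from 293 to 3424. The lower calls at P12 ran from 147 with the length correction to 1390, and at P60 from 242 in the fit over all 12 libraries to 1790. The summed share of the reads without Malat1 and Meg3 was 0.235% in the P12 and 0.147% in the P60 pull-downs, against 1.04% and 1.25% in the supernatants. With the longest transcript in place of all exons, 29 of 40 mean levels per kilobase moved by less than 1 SD, and the other 11 were all 4 of Rian (29.0 to 98.1 CPM per kb), all 4 of Snhg11 (37.7 to 102) and 3 of Meg3 (201 to 468).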

Other observations

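The messenger RNAs of proteins that bind or process these RNAs were counted in the same libraries. Of 28 such genes tested, 3 were called higher and 1 lower in the pull-down at P12 (median -0.34), and 1 higher and 4 lower at P60 (median -0.14). The shares over all genes tested were 6.28% higher and 1.95% lower at P12, and 7.11% and 4.53% at P60. Srrm2, a scaffold protein of nuclear speckles, was the highest of the 28 at both ages, by 1.75 ± 0.15 at P12 and 1.33 ± 0.14 at P60 (log2, SE). The lowest were Pop1, a subunit of RNase P and RNase MRP, at -1.76 ± 1.89 at P12 (adjusted p = 0.679), and Qk, a splicing regulator of glia, at -0.93 ± 0.14 at P60 (adjusted p = 4.85e-06). Among the other long non-coding RNAs, H19, an imprinted RNA of fetal tissue, was the lowest in the P60 against the P12 supernatants, at -3.52 ± 0.27 (adjusted p = 8.12e-12).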
